A study of Mus musculus with 20 samples.

Results

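The genes described here are 32 genes of glycolysis and of the response to the transcription factor HIF-1. They are the glucose and lactate carriers, the glycolytic enzymes step by step, HIF-1α with its prolyl hydroxylases, and a few further HIF-1 targets. They were chosen by name and not by a rule on their values, but with earlier results of these data known. All 32 were found among the 50600 gene entries of each of the tables, 1 for eosinophils and 1 for macrophages. The transcripts were measured by CEL-Seq, which reads the 3′ end of polyadenylated RNA with sample barcodes. All mice were C57BL/6 WT. Eosinophils, granulocytes of the gut wall, and macrophages, its resident phagocytes, were sorted by flow cytometry out of enzymatically digested colons, either of naive mice or of mice that bore tumors after an induction named CAC in the labels. The 4 groups were 2 libraries of naive eosinophils, 7 of tumor eosinophils, 5 of naive macrophages and 6 of tumor macrophages. Each RNA sample was extracted with Trizol and prepared with 3 technical replicates. The age of the mice, the sorting markers and whether the libraries came from separate mice are given by none of the sources used here. The p-values below therefore measure only the spread between these libraries, which may be technical.

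Glycolysis breaks glucose down to pyruvate, which can be reduced to lactate and exported or can enter the mitochondria. HIF-1 is a heterodimer whose α subunit is hydroxylated by prolyl hydroxylases when oxygen is present and is then degraded. When it is stable, it binds a short core sequence near its target genes, among them most glycolytic enzymes, Slc2a1 and the gene of the lactate exporter MCT4, and myeloid cells are known to lean on this program in inflamed and poorly oxygenated tissue.

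The libraries held 1477255 to 8520874 reads each. Summed markers of the labelled cell type were higher in each sort than in the other. The summed macrophage markers stood at 19520 to 33590 CPM (reads scaled to a common library size) in macrophage libraries against 337 to 1371 CPM in eosinophil libraries, and the summed eosinophil markers at 807 to 9694 CPM in eosinophil libraries against 12.97 to 77.7 CPM in macrophage libraries. Neutrophil markers were high in eosinophil libraries, at 6486 and 11540 CPM in the naive and 4820 to 14710 CPM in the tumor libraries, with most of it from Retnlg and with Elane and Mpo at 0 reads in both naive libraries. Summed B and plasma cell markers, led by Igkc, stood at 18100 to 75550 CPM in naive and 9234 to 72330 CPM in tumor macrophage libraries. Their naive median of 52790 CPM exceeded that of the macrophage markers (24190), and their tumor median was 26170 against 27090. In eosinophil libraries they stood at 4467 to 7544 CPM (naive) and 7209 to 17560 CPM (tumor), above the eosinophil markers at the median. The naive eosinophil libraries stood apart from each other, as described with the eosinophil results. In sorted bulk samples, a smaller share of cells expressing a gene and less of its RNA per cell cannot be told apart. Differences are given on the scale of log2(value + 1), and a gene is called when its adjusted p in limma, over all genes tested in that comparison, is under 0.05. By gene, all 12 macrophage markers were called higher in macrophages of either origin. Of the 11 eosinophil markers, 6 were called higher in naive eosinophils than in naive macrophages, 1 lower and 4 not. In tumors 9 were called higher and 2 not. The summed eosinophil markers of the naive eosinophil libraries, 1750 and 2425 CPM, lay below their summed neutrophil markers.

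Of the 32 genes, 30 had a promoter in the RefSeq table (GRCm38.p6, 250 bases before to 50 bases after an annotated start). Their windows were searched on both strands for ACGTG and GCGTG, the forms of the core that HIF-1 binds. A gene counted if any of its windows held the core. The 30 members had 43 windows, all 27025 genes with a promoter 32851, and the 9296 of them tested in eosinophils 11842. The number of windows per gene was thus unequal. No share was taken over the genes tested in macrophages. ACGTG was present for 22 of the 30 (73.3%), against 21.8% of all 27025 genes with a promoter and 28.7% of the 9296 such genes tested in eosinophils. GCGTG was present for 20 (66.7%), against 35.2% and 54.1%. Either core was present for 28 (93.3%), against 46.7% and 65.7%; Gpi1 and Tpi1 had neither in these windows. Of the 17 genes with a promoter that rose in tumor macrophages, 13 held ACGTG, 9 GCGTG and 16 either core, and of the 12 that were not called there 8, 10 and 11 did. The promoters of 5 genes that rose in tumor macrophages are shown as examples, chosen after the values were seen to cover glucose entry, the middle and the end of glycolysis, lactate export and a mitochondrial target. Capitals mark ACGTG or GCGTG on either strand (CACGT or CACGC on the strand shown), and the palindrome CACGTG counts on both strands. A match is a string of letters and not a measured binding site.

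Slc2a1, chr4:119108495-119108794, plus strand: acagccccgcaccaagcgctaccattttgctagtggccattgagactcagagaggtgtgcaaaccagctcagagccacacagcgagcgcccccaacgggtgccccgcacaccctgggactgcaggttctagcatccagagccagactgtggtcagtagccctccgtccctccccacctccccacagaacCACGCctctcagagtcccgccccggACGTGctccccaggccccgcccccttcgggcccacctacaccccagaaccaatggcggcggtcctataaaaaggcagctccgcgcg
Pgk1, chrX:106186850-106187149, plus strand: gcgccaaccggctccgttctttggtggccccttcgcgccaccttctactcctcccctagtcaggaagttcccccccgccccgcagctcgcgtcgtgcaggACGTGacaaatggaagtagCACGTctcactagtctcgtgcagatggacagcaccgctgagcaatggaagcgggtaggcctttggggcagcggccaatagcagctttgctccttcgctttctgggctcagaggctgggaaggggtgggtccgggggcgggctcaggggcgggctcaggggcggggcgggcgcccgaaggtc
Ldha, chr7:46845554-46845853, plus strand: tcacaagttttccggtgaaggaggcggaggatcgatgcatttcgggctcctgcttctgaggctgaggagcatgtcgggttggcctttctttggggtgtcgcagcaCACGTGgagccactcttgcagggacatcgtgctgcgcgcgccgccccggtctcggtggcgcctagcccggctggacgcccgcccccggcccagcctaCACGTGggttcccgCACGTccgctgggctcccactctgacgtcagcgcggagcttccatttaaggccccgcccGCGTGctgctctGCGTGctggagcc
Slc16a3, chr11:120948817-120949116, plus strand: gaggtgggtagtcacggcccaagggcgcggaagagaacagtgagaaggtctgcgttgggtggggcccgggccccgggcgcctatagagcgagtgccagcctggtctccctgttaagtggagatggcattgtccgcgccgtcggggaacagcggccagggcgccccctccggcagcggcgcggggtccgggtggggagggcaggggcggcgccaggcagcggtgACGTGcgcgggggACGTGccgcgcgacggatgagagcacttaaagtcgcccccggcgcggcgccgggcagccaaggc
Bnip3, chr7:138909457-138909756, minus strand: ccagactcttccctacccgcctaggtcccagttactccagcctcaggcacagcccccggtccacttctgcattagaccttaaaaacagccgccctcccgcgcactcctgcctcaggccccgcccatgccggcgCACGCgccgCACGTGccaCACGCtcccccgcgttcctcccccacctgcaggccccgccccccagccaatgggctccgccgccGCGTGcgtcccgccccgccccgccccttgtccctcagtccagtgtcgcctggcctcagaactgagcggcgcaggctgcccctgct

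In tumor macrophages most of the pathway rose together. Of the 31 members tested against naive macrophages (Ankrd37 was too low), 18 rose, Slc2a3 fell and 12 were not called, where 17.1% of all 11520 genes tested were called, 8.5% higher and 8.59% lower, and 30.3% had an unadjusted p under 0.05. The median change of the members was 0.79 on the log2 scale, beside 0.03 over all genes tested. In 15 members every tumor library lay above every naive library, a pattern met by 5.19% of all genes tested, and in none was every tumor library below every naive one (5.47%). Summed over all 32 members, expression was 3522 to 4011 CPM in the 5 naive libraries and 7315 to 9802 CPM in the 6 tumor libraries, with no overlap.

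At glucose entry the carriers moved in opposite directions in macrophages. Slc2a1 (chr4:119108711-119137983, GRCm38), which encodes the basal glucose carrier GLUT1, was at 62.4, 98.3, 43.8, 94.1 and 36.4 normalised reads in naive libraries 1 to 5. In the tumor libraries it ran from 177 over a median of 308 to 521, so that even the lowest tumor library exceeded the highest naive one. Slc2a1 rose by 2.28 ± 0.29 (SE; adjusted p = 7.06e-05, limma). Slc2a3 (chr6:122727809-122801640), which encodes the high-affinity carrier GLUT3, was at 48.2, 45.2, 65.6, 28.2 and 54.6 in naive libraries and at 10.04, 17.3 and 50.4 (lowest, median, highest) in tumor libraries. It fell by 1.26 ± 0.36 (adjusted p = 0.025, limma), with overlap between the groups through tumor library 2. This call was lost in 7 of 19 alternative analyses, among them edgeR on the recovered reads (adjusted p = 0.0522; range over the alternatives 0.00146 to 0.0801).

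In the next steps 2 of 9 members were called. Hk2, the inducible hexokinase that traps glucose as its phosphate, was at 385, 309.9, 299.8, 353 and 252 in naive libraries 1 to 5 and at 362, 422 and 531 (lowest, median, highest) in tumor libraries. It rose by 0.44 ± 0.14 (adjusted p = 0.036, limma), with overlap between the groups, and lost its call in 10 of 19 alternatives (adjusted p = 0.0217 to 0.156). Hk1, the housekeeping hexokinase, Hk3, its myeloid relative, and Gpi1, which isomerises the sugar phosphate, were at −0.29, 0.38 and 0.29 on the log2 scale and were not called. Of the phosphofructokinases, which commit the sugar to glycolysis, the liver-type Pfkl was at 157, 134, 109, 79.5 and 84.98 in naive libraries and at 161, 206 and 244 (lowest, median, highest) in tumor libraries. The lowest tumor library lay just above the highest naive one, and Pfkl rose by 0.88 ± 0.18 (adjusted p = 0.00357, limma). The platelet-type Pfkp was at 413 ± 14.6 and 380.4 ± 77.7, and the muscle-type Pfkm at 19.4 ± 3.67 and 18.4 ± 6.34. Neither was called, nor were Pfkfb3 and Pfkfb4, the enzymes that set the activator fructose 2,6-bisphosphate, at 0.53 ± 0.27 and −0.10 ± 0.20. Reads of Pfkm cannot be separated from those of the overlapping Senp1 if counting ignored strand, which the sources used here do not say, and the 3′ end of Pfkp likewise lies over Pitrm1.

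From aldolase on, almost every enzyme rose in tumor macrophages. Aldoa, which splits the doubly phosphorylated sugar, was at 2010, 1568, 1787, 1538 and 1867 in naive libraries and at 3032, 3630 and 4019 (lowest, median, highest) in tumor libraries, without overlap (1.02 ± 0.13, adjusted p = 4.92e-05, limma). Aldoc, the minor aldolase, was not called (0.25 ± 0.19). Tpi1, which interconverts the triose phosphates, was at 489, 329, 413, 367 and 407 in naive libraries 1 to 5 and at 647, 715 and 906 (lowest, median, highest) in tumor libraries, again without overlap (0.90 ± 0.14, adjusted p = 0.000333, limma).

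All 5 genes of lower glycolysis rose. Pgk1, the first ATP-making enzyme of the pathway, was at 662, 672, 730, 760 and 710 in naive libraries and at 1152, 1667 and 1975 (lowest, median, highest) in tumor libraries. The naive values lay close together, and the lowest tumor library exceeded all of them (1.13 ± 0.14, adjusted p = 6.34e-05, limma). Pgam1, the phosphoglycerate mutase, was at 1218, 1052, 1516, 1181 and 959 in naive libraries 1 to 5 and at 2039, 2622 and 3101 (lowest, median, highest) in tumor libraries, a rise of 1.13 ± 0.15. Pkm, the pyruvate kinase whose isoforms these 3′ reads do not separate, was at 4620, 3754, 5521, 3518 and 4122 in naive libraries 1 to 5 and at 6397, 8982 and 12450 (lowest, median, highest) in tumor libraries, a rise of 1.06 ± 0.19. Both were without overlap. Gapdh, which oxidises glyceraldehyde phosphate, was at 899, 702, 1050, 716 and 917 in naive libraries 1 to 5 and at 1158, 1566 and 1859 (lowest, median, highest) in tumor libraries (0.80 ± 0.16). Eno1, the enolase, was at 1908, 1335, 2299, 1591 and 1897 in naive libraries 1 to 5 and at 2210, 3006 and 4368 (lowest, median, highest) in tumor libraries (0.79 ± 0.19). It was the only one of the 5 with overlap, since tumor library 3 (2210) lay below naive library 3 (2299). The adjusted p of these 4 in limma ran from 0.000107 for Pgam1 to 0.0111 for Eno1. The predicted gene Gm3839, 99.0% identical to Gapdh over 502 bases, held 55.2% as many reads as Gapdh; with both summed, the macrophage change was 0.75 ± 0.16 (adjusted p = 0.00416, limma).

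At the lactate step 3 of 5 members rose. Slc16a3, which encodes the lactate exporter MCT4 and whose promoter is shown above, was at 319, 186, 203, 307 and 185 in naive libraries and at 667, 1213 and 1684 (lowest, median, highest) in tumor libraries. Every tumor library stood far above the highest naive one, and the change was 2.22 ± 0.25 (adjusted p = 2.32e-05, limma). Ldha, the muscle-type lactate dehydrogenase, was at 1068, 1070, 1076, 1063 and 1008 in naive libraries, a narrow range, and at 1404, 1753 and 2155 in tumor libraries (0.73 ± 0.12, adjusted p = 0.000564, limma). Ldhb, the heart-type subunit, was at 7.13, 10.8, 21.9, 25.1 and 30.4 in naive libraries 1 to 5 and at 64.02, 70.2 and 107 (lowest, median, highest) in tumor libraries, low in all naive libraries (2.15 ± 0.32, adjusted p = 0.000279, limma). Slc16a1, which encodes the more general monocarboxylate carrier MCT1, was not called at 0.29 ± 0.38, nor was Pdk1, the kinase that shuts pyruvate dehydrogenase, at −0.29 ± 0.19.

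Hif1a, Egln3 and 3 of the 4 tested targets outside glycolysis rose as well. Hif1a (chr12:73901375-73947530), which encodes the oxygen-regulated subunit itself, was at 287, 372, 351, 354 and 382 in naive libraries and at 865, 1009 and 1269 (lowest, median, highest) in tumor libraries. The groups were far apart (1.56 ± 0.13, adjusted p = 2.07e-06, limma). Egln3 (chr12:54178981-54203860), a prolyl hydroxylase that is itself a HIF target, was at 23.2, 12.2, 12.9, 8.37 and 18.2 in naive libraries and at 65.4, 86.0 and 110.1 in tumor libraries, the largest change among the members (2.51 ± 0.24, adjusted p = 5.93e-06, limma). Egln1, the hydroxylase that marks HIF-1α in most cells, was not called (0.30 ± 0.16). Bnip3, a mitophagy receptor, was at 65.98, 75.2, 55.3, 68.5 and 81.95 in naive libraries 1 to 5 and at 169, 233 and 291 (lowest, median, highest) in tumor libraries (1.69 ± 0.16, adjusted p = 5.39e-06, limma). Ndrg1, a hypoxia-induced stress gene, was at 321, 183, 181, 216 and 264 in naive libraries 1 to 5 and at 358, 539 and 864 (lowest, median, highest) in tumor libraries (1.24 ± 0.23, adjusted p = 0.00152, limma). In both genes the groups did not overlap. Ddit4, an inhibitor of mTORC1, was at 16.1, 37.15, 20.6, 31.9 and 12.1 in naive libraries 1 to 5 and at 33.2, 110.4 and 134 (lowest, median, highest) in tumor libraries (1.97 ± 0.36, adjusted p = 0.00142, limma). For Ddit4, tumor library 1 (33.2) lay below naive library 2 (37.15). P4ha1, a collagen prolyl hydroxylase, was at 70.6 ± 20.7 and 73.8 ± 28.9 and was not called. Ankrd37 reached at most 14.1 in any macrophage library.

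**Figure D1:**
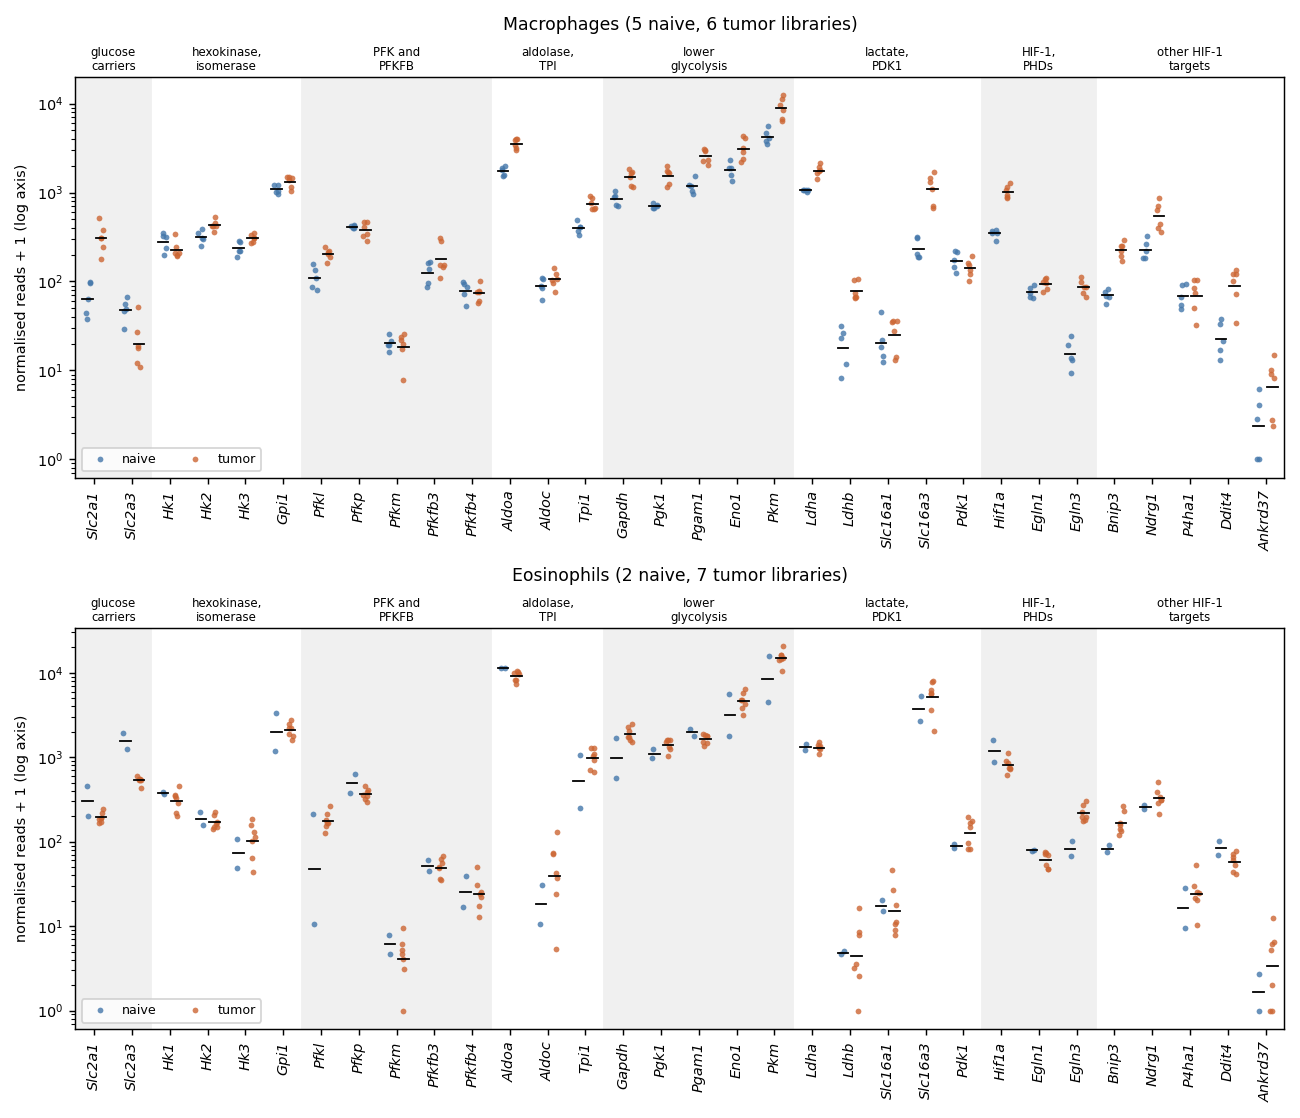
Normalised reads plus 1 on a log axis for each of the 32 members, 1 dot per library, naive in blue and tumor in orange, with black lines at the geometric mean of each group; macrophages are above and eosinophils below, in the order of the pathway. In macrophages the tumor dots of Slc2a1, Pgk1, Slc16a3, Hif1a, Egln3 and Bnip3 stand clear of the naive dots. In eosinophils the tumor dots of Slc2a3 lie below and those of Egln3 and Bnip3 above the 2 naive dots, while the naive dots of Pfkl, Tpi1 and Pkm lie far from each other.

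The tumor macrophage libraries were not alike in every member. The chi-square per gene between the reads of 2 libraries, which also depends on depth, was lowest within neighbouring pairs. It was 7.79 for libraries 1 and 2, 7.36 for 3 and 4 and 11.9 for 5 and 6, against 20.2 to 63.5 otherwise. Whether such pairs share a source is not given, and the tests treat all 6 libraries as separate. Libraries 1 and 2 held the highest levels of Pkm (11330 and 12450), Eno1 (4368 and 4080) and Gapdh (1701 and 1859), and the lowest of Pfkfb3 (145 and 109.8), P4ha1 (31.5 and 49.1) and Ddit4 (33.2 and 70.5). Libraries 3 and 4 had the lowest Pkm (6728 and 6397) and Slc16a3 (667 and 699) of the 6 and the highest Pfkfb3 (283 and 304). Summed neutrophil markers moved with the tumor group: they stood at 44.7 to 70.5 CPM in naive and at 140.1 to 882 CPM in tumor macrophage libraries, with libraries 1 and 2 highest (882 and 681) and 6 of the 10 markers tested called higher, and none of the 14 markers was at 0 in every library of either group. Without tumor libraries 1 and 2 the same 19 members were called; libraries 3 to 6 still held at least 140.1 CPM of neutrophil markers, above every naive library. Markers of other cells were also called in this comparison. Called higher were 3 of 12 epithelial and 2 of 4 mast cell markers tested. Called lower were 4 of 4 erythrocyte, 4 of 6 dendritic cell, 4 of 7 stromal and endothelial and 3 of 6 monocyte markers tested (1 monocyte marker higher). Of the macrophage markers 2 of 12 were called lower, and 1 marker each of the epithelial, T and NK cell and eosinophil lists. The part of these cells in the values of the members was not tested.

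In tumor eosinophils few members were called, at a share near that of all genes tested. With 2 naive libraries, a member that was not called may still have changed, and 5 members had an unadjusted p under 0.05. Of the 29 members tested against naive eosinophils (Pfkm, Ldhb and Ankrd37 were too low), Egln3 rose, Slc2a3 fell and 27 were not called, where 4.61% of all 12967 genes tested were called, 2.42% higher and 2.19% lower, and 19.7% had an unadjusted p under 0.05. The median change of the members was 0.07, beside 0.01 over all genes tested, with 15 members above 0 and 14 below. Tumor eosinophil libraries 4 to 7 lay closer to each other (chi-square per gene 14.7 to 29.7) than to libraries 1 to 3 (32.7 to 151). In 2 members, Egln3 and Bnip3, every tumor library lay above both naive libraries, and in 3, Slc2a3, Aldoa and Egln1, below both, patterns met by 7.33% and 9.76% of all genes tested. Markers of other cells moved with the same comparison: the summed macrophage markers were at 498 and 337 CPM in naive and at 706 to 1371 CPM in tumor eosinophils, with 4 of 10 tested called higher and none lower, and 5 of 14 neutrophil markers were called higher and none lower. The summed eosinophil markers were at 1750 and 2425 CPM in naive and at 807 to 9694 CPM in tumor eosinophils. Of the 11, none was called higher, 3 were called lower (Siglecf, Ccr3 and Il5ra) and 7 had a change above 0, with a median of 1.73. Among the other marker lists, 1 of 12 epithelial and 1 of 8 stromal and endothelial markers were called lower. The summed epithelial markers were at 1733 to 2785 CPM in naive and at 1915 to 5836 CPM in tumor eosinophils. Of the 12, 9 had a change above 0 and 3 below, with 5 at an unadjusted p under 0.05 in limma. The part of these cells in the values of the members was not tested.

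Slc2a3 was at 1931 and 1258 in naive eosinophils and at 433, 534 and 595 (lowest, median, highest) in tumor eosinophils. Both naive libraries lay well above all 7 tumor libraries. The GLUT3 gene thus fell in tumor eosinophils, by 1.56 ± 0.26 on the log2 scale (adjusted p = 0.00624, limma), and the call held in all 17 alternative analyses (adjusted p = 0.00624 to 0.0282). Slc2a1 was at 198 and 454 in naive and at 165, 188 and 245 in tumor eosinophils and was not called (−0.64 ± 0.33, adjusted p = 0.306, limma).

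Egln3 was at 66.1 and 101 in naive eosinophils and at 175, 196 and 305 (lowest, median, highest) in tumor eosinophils, again without overlap. It rose by 1.39 ± 0.31 (adjusted p = 0.0268, limma). The call was lost in 5 of 17 alternatives (adjusted p up to 0.113): without naive library 1, naive library 2 or tumor library 4, in the weighted limma-voom fit, and without tumor libraries 2 and 3, in which mitochondrially encoded genes took 34.95 and 35.18% of the reads. Bnip3 was at 73.7 and 89.4 in naive and at 118, 157 and 262 in tumor eosinophils; its change of 1.02 ± 0.35 did not pass (adjusted p = 0.119, limma). Hif1a was at 886 and 1581 in naive and at 610, 754 and 1114 in tumor eosinophils (−0.56 ± 0.30, adjusted p = 0.332, limma).

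None of the glycolytic enzymes was called in eosinophils. Aldoa stood at 11530 and 11450 in naive libraries and 9176 ± 1197 (n = 7) in tumor libraries (−0.34 ± 0.27). Pgam1 stood at 1796 and 2176 against 1659 ± 211, Pgk1 at 973 and 1252 against 1420 ± 224, and Ldha at 1209 and 1425 against 1307 ± 135. None of these 4 was called, and their naive libraries lay close together. Slc16a3, the lactate exporter, ran from 2048 to 8049 over the tumor libraries and was at 5293 and 2688 in the naive ones (0.45 ± 0.48, not called). The remaining members that were tested in eosinophils were not called either, with changes from −0.54 for Ddit4 to 1.89 for Pfkl. Of the 5 genes of lower glycolysis, 4 had a change above 0 and 1 below. Gapdh was at 0.94 ± 0.365, Pkm at 0.845 ± 0.42, Eno1 at 0.54 ± 0.40 and, 1 step earlier, Tpi1 at 0.90 ± 0.45. Their naive libraries lay far apart. The difference of their tumor effect from that in macrophages, tested below, was 0.03, −0.325, −0.36 and −0.11 in the same order, none called.

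The 2 naive eosinophil libraries differed most in a subset of the enzymes. Pfkl was at 215 in library 1 and 9.66 in library 2, Tpi1 at 1075 and 252, Pkm at 15900 and 4453, and Gapdh at 1678 and 571. Eno1 was at 5648 and 1785 and Gpi1 at 3352 and 1187. In contrast Hif1a and Slc2a1 were higher in library 2. Of the 29 members tested, 10 (34.5%) lay more than 1 log2 unit lower in library 2, as did 21.0% of all genes tested. Over 12601 genes the difference between the libraries ran with the share of G and C in the last 500 bases of the transcript (Pearson r −0.34, Spearman rho −0.37, across genes of 1 library pair, which are not independent). The median difference went from 0.56 in the genes of lowest GC (quintile 1 of 5) to −0.79 in those of highest GC (quintile 5). Gapdh, Eno1, Pkm and Pfkl are in the highest quintile, as is Aldoa, which was at nearly the same level in both libraries, and Tpi1 and Gpi1 are not. Against the other libraries of their own group, tumor eosinophil and macrophage libraries showed smaller correlations with GC, the largest Pearson r being 0.22. Whether GC had a part in the members' values was not tested. Left without naive library 1, the comparison called 6 members: Slc2a3, and, newly, Pfkl (4.06), Tpi1 (1.94), Pkm (1.76), Gapdh (1.72) and Slc2a1 (−1.23). Left without naive library 2, it called 1.

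**Figure D2:**
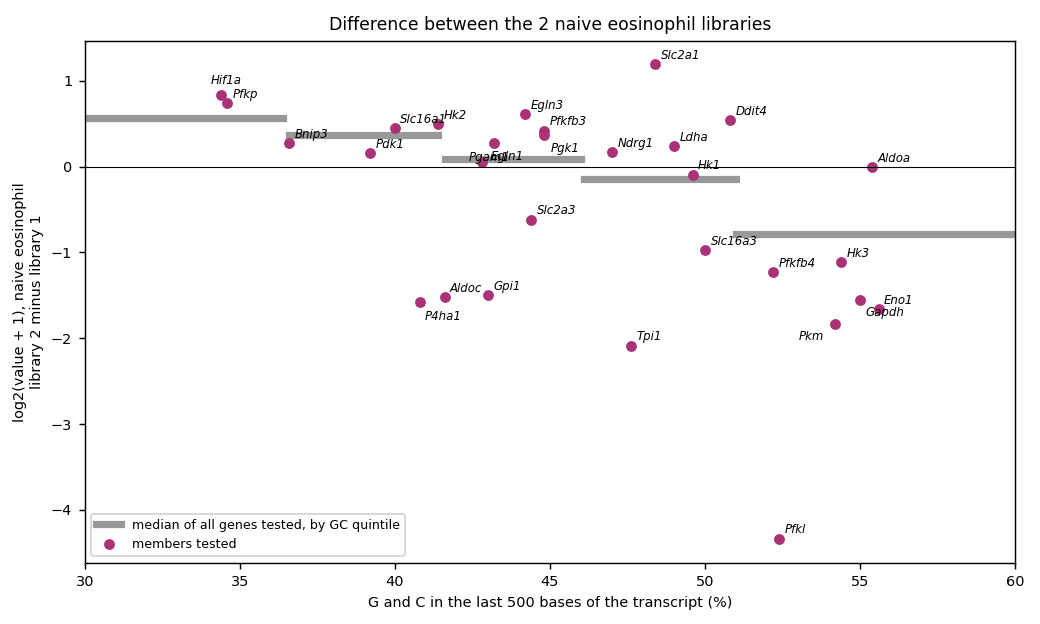
Difference in log2(value + 1) between naive eosinophil library 2 and library 1 (vertical axis) against the percentage of G and C in the last 500 bases of the transcript (horizontal axis), 1 dot for each of the 29 members tested; grey bars are the medians of all genes tested in each GC quintile. Pfkl lies lowest at −4.34 and Slc2a1 highest at 1.19, and the grey bars step down from 0.56 to −0.79 as GC rises.

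The tumor effect was then compared between the cell types in a joint model of all 20 libraries, since a change called in 1 cell type and not in the other does not by itself differ between them. For 6 of the 32 members the effect in eosinophils was lower than in macrophages, for none higher, and 26 were not called, where 3.9% of all 15600 genes tested were called, 1.79% higher and 2.11% lower. The median over the members was −0.60, beside −0.06 over all genes, and 26 members had a negative difference. Under median-of-ratios scaling the median over all genes moved by 0.13, and the share of higher calls among all called genes went from 46% to 61.7%, so small differences depend on the scaling.

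The 6 were Slc2a1, Aldoa, Pgam1, Ldha, Hif1a and Ddit4. On the joint scale, Slc2a1 was at 311 and 649 reads in naive eosinophils, 285 ± 38.5 in tumor eosinophils, 82.0 ± 38.1 in naive macrophages and 414 ± 159 in tumor macrophages. It was high in eosinophils of either origin and in tumor macrophages, and low only in naive macrophages. The difference of effects was −3.03 ± 0.49 (adjusted p = 0.000959, limma). Hif1a was at 1388 and 2258, 1198 ± 252, 422 ± 53.0 and 1323 ± 225 in the same order (−2.23 ± 0.30, adjusted p = 0.000106, limma), with the same arrangement of groups. Both calls held in all 26 alternatives.

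Aldoa was at 18060 and 16360 in naive and 13520 ± 2155 in tumor eosinophils, and at 2108 ± 155 and 4555 ± 544 in macrophages (−1.47 ± 0.26, adjusted p = 0.00184, limma). Its rise in macrophages left it below every eosinophil library. Pgam1 was at 2814 and 3109, 2447 ± 393, 1429 ± 252 and 3314 ± 535 (−1.50 ± 0.28, adjusted p = 0.00279, limma). Ldha was at 1895 and 2036, 1921 ± 226, 1276 ± 82.1 and 2263 ± 345 (−0.85 ± 0.24, adjusted p = 0.0427, limma), a call lost in 19 of 26 alternatives (adjusted p = 0.0305 to 0.245). Ddit4 was at 107 and 143, 86.0 ± 23.4, 28.9 ± 14.3 and 125 ± 51.1 (−2.63 ± 0.60, adjusted p = 0.014, limma), lost without naive eosinophil library 2 and in 2 other alternatives (adjusted p = 0.00226 to 0.143). Slc16a3 missed the threshold at −1.88 ± 0.54 (adjusted p = 0.0502, limma), with adjusted p of 0.035 to 0.189 over the alternatives. Egln3, which rose in both cell types, had a difference of −1.24 ± 0.40 (adjusted p = 0.0834, limma), and Slc2a3, which fell in both, of −0.39 ± 0.49 (adjusted p = 0.728, limma).

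**Figure D3:**
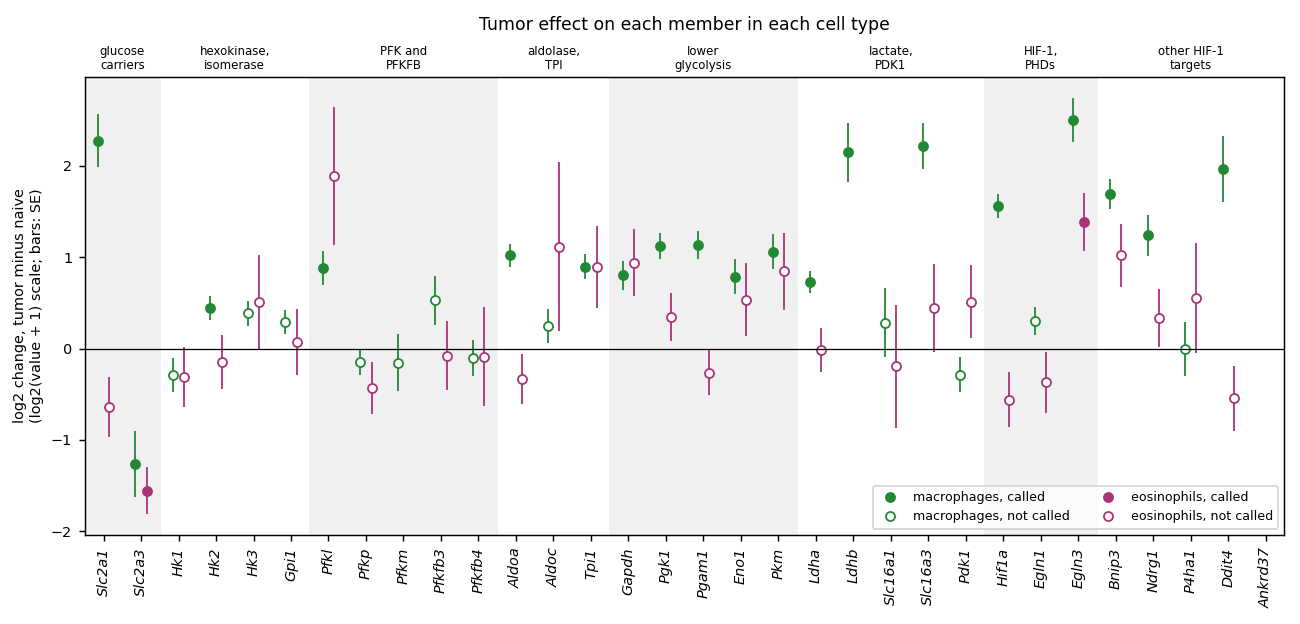
Log2 change from naive to tumor (vertical axis, bars are SE) for each member in macrophages (green) and eosinophils (purple), filled where called in limma and open where not, in pathway order; members too low to test have no dot. The green dots of lower glycolysis lie between 0.79 and 1.13, and the purple dots of Slc2a1, Aldoa, Pgam1, Hif1a and Ddit4 lie below 0 where the green ones lie above it.

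**Figure D4:**
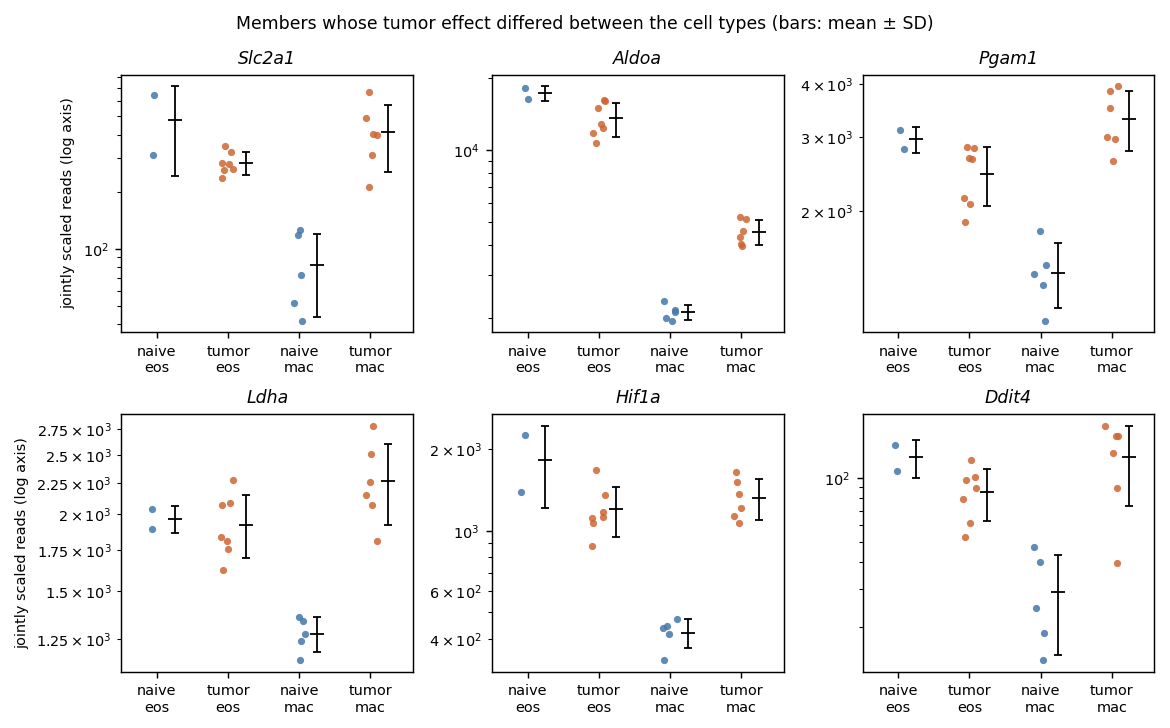
Jointly scaled reads on a log axis for the 6 members whose tumor effect differed between the cell types, 1 dot per library in each of the 4 groups, naive in blue and tumor in orange, with mean ± SD beside the dots. In each panel naive macrophages are the lowest group.

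Levels in the cell types were compared in the same model. In naive colon, eosinophils stood above macrophages for 13 members and below them for 3 (Hk3, Pfkfb4 and P4ha1), with 16 not called, where 28.9% of all genes were called, 14% higher and 14.9% lower. In tumors the balance was 9 higher, 8 lower and 15 not called, with 41.7% of all genes called, 18.4% higher and 23.3% lower. Pfkm and Ldhb, among the 8, were too low to test within eosinophils. The median difference of the members was 0.55 in naive colon and −0.23 in tumors. These comparisons share all their libraries with the test of the difference and add levels, not separate support. Markers of other cells differed in them too. Of 14 neutrophil markers, 7 were called higher in naive and 11 in tumor eosinophils than in macrophages, and none lower. Of 9 B and plasma cell markers, 8 were called lower in eosinophils of either origin, and none higher. The part of these cells in the levels of the members was not tested.

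The glucose carrier GLUT3 and the lactate exporter MCT4 were among the members that differed between the cell types. Slc2a3 was at 3025 and 1798 jointly scaled reads in naive eosinophils and at 57.9 ± 15.2 in naive macrophages, a difference of 5.35 ± 0.41 (adjusted p = 8.89e-10, limma). It stayed at 782 ± 83.1 in tumor eosinophils against 28.0 ± 19.0 in tumor macrophages (4.96 ± 0.27, adjusted p = 1.83e-12, limma). Slc16a3 was 4.32 ± 0.45 higher in naive eosinophils and 2.44 ± 0.30 higher in tumor eosinophils than in macrophages of the same origin. Egln3 was 2.78 ± 0.33 higher in naive and 1.54 ± 0.22 higher in tumor eosinophils, and Aldoa 3.03 ± 0.22 and 1.56 ± 0.14 higher. Those 4 members were called higher in eosinophils of both origins, as were Gpi1, Eno1 and Pkm; the naive calls of the latter 3 were lost without naive eosinophil library 1 (0.45, 0.32 and 0.38).

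Slc2a1 (2.57 ± 0.40), Hif1a (2.08 ± 0.25), Ddit4 (2.199 ± 0.497), Pgk1 (0.96 ± 0.23) and Ldha (0.62 ± 0.20) were called higher in naive eosinophils than in naive macrophages and not called in tumors, where their differences were −0.46, −0.15, −0.43, 0.07 and −0.23. Pgam1 was 1.07 ± 0.23 higher in naive eosinophils than in naive macrophages, and stood at −0.44 ± 0.15 in tumor eosinophils against tumor macrophages, the latter call of limma being lost in 11 of 25 alternatives, over which its adjusted p in limma or edgeR ran from 0.00645 to 0.0995. On the macrophage side, Hk3 and Pfkfb4 were called lower in eosinophils than in macrophages of either origin (−1.39 and −1.33 naive, −1.38 and −1.43 tumor), with Hk2 (−1.15) and Pfkfb3 (−1.66) also lower in tumor eosinophils. Pfkm and Ldhb, too low to test within eosinophils, reached at most 8.41 and 15.33 normalised reads in any eosinophil library. P4ha1 was lower in both (−1.80 and −1.34). The naive calls of Hk3, Pfkfb4, P4ha1 and Ldha were lost without naive eosinophil library 2 (−0.77, −0.64, −0.93 and 0.57). For Pfkl, not called in naive colon at −0.91, the direction depended on which naive eosinophil library was used: −3.10 without library 1 and 1.35 without library 2.

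Within paralog families, the shares of reads shifted in tumor macrophages. Families were formed from members only: Slc2a1 with Slc2a3, Hk1 with Hk2 and Hk3, and Pfkl with Pfkp and Pfkm. The others were Aldoa with Aldoc, Ldha with Ldhb, and Slc16a1 with Slc16a3. Further paralogs such as Slc2a6, Ldhc and Slc16a7, given below, were not counted. Such shares cancel depth, but 3′ reads are not divided by transcript length and paralogs may be read with unequal efficiency, so only the change of a share is read. The exact test treats the libraries as exchangeable, which the pairs of tumor macrophage libraries given above may not meet. Slc2a1 made up 40.0 to 76.9% of the reads of both glucose carriers in naive and 82.9 to 98.1% in tumor macrophages, without overlap (56.4 ± 16.6% to 92.5 ± 6.08%; exact two-sided permutation test p = 0.00433, the smallest that 5 against 6 allows, adjusted p = 0.026 over 12 tests). Pfkp fell from 75.9 ± 4.85% to 62.8 ± 5.21% of the phosphofructokinase reads (exact p = 0.00866, adjusted p = 0.026), as Pfkl rose. Ldha fell from 98.2 ± 0.93% to 95.6 ± 1.22% of the lactate dehydrogenase reads (exact p = 0.00866, adjusted p = 0.026). Aldoa rose from 95.2 ± 0.75% to 97.1 ± 0.53% of the reads of Aldoa and Aldoc (exact permutation p = 0.00433, adjusted p = 0.026). Slc16a3 rose from 91.9 ± 3.34% to 97.4 ± 1.78% of the reads of Slc16a1 and Slc16a3 (exact permutation p = 0.013, adjusted p = 0.0312). Slc16a7, left out of this share, ran from 69.48 to 130.2 normalised reads in naive and from 34.45 to 61.18 in tumor macrophages. The share of Hk2 among the hexokinases was 38.0 ± 4.36% and 44.5 ± 3.62% and did not pass (exact p = 0.0346, adjusted p = 0.0692).

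In eosinophils 2 against 7 libraries cannot give a two-sided p below 0.0556, and no share passed. Slc2a3 and not Slc2a1 held most of the carrier reads there, with 90.7% and 73.5% in naive and 68.5 to 76.4% in tumor libraries (exact permutation p = 0.278). Hk1 held 57.6 and 59.9% in naive and 45.2 to 59.3% of the hexokinase reads in tumor libraries (exact permutation p = 0.111). Aldoa made up at least 98.45% of its reads with Aldoc in every eosinophil library. The lowest share was 98.6% for Ldha with Ldhb and 99.19% for Slc16a3 with Slc16a1. These shares leave out Ldhc, at 53.37 and 82.11 normalised reads in the naive libraries, and Slc16a7, at 89.91 and 120.8.

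**Figure D5:**
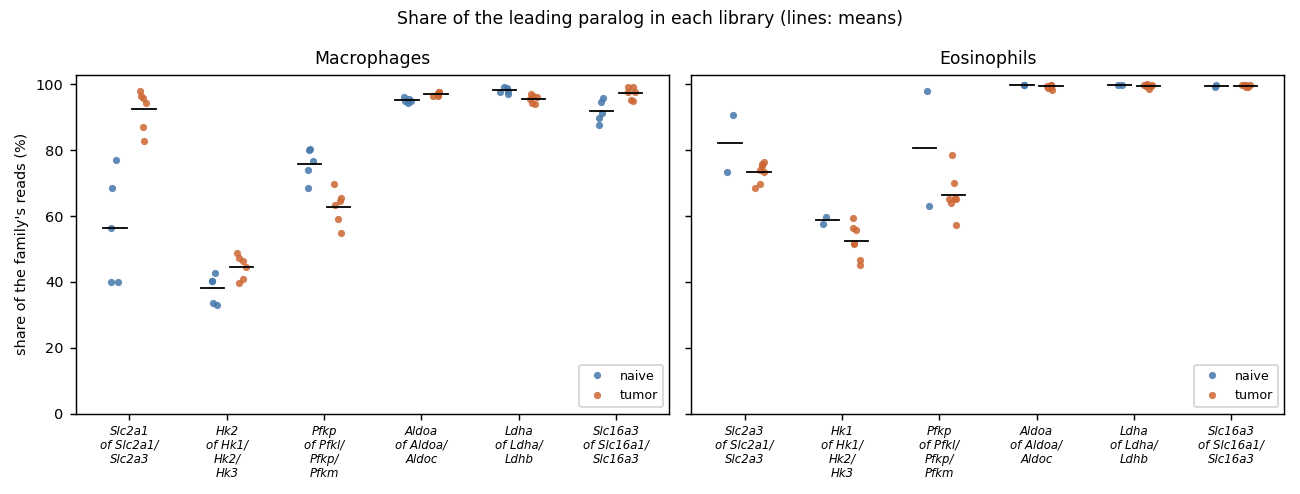
Percentage of a paralog family's reads taken by its leading member in each library (1 dot each, lines at the group means), naive in blue and tumor in orange, macrophages on the left and eosinophils on the right. In macrophages the share of Slc2a1 goes from 40.0 to 76.9% in naive to 82.9 to 98.1% in tumor libraries; in eosinophils Slc2a3 holds most reads of that family.

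Genes next to the members were taken from lists by pathway. In tumor macrophages, 6 of 26 wider HIF target genes tested were called higher and 1 lower, where 8.5% of all genes tested were called higher and 8.59% lower. Vegfa, the angiogenic growth factor, was at 208 ± 37.4 in naive and 1482 ± 280 in tumor macrophages (2.82 ± 0.16, adjusted p = 5.7e-08, limma). The others were Ero1l, an oxidase of disulfide formation (1.56), Mxi1, a Myc antagonist (1.38), Mif, a cytokine (1.008), Tfrc, the transferrin receptor (0.78), and Hilpda, a lipid droplet protein (1.19), with Zfp395 lower (−1.71). Of 11 glycogen and gluconeogenesis genes tested 4 rose: Pygl, the glycogen phosphorylase (1.49), Ppp1r3b (1.29), Pgm2 (1.07) and Gys1, the glycogen synthase (0.75). In the pentose phosphate pathway 2 of 8 rose, Pgd (0.95) and Tkt (0.52). Of 12 genes of pyruvate entry, Mpc1, Pdk3 and Pdp2 rose (0.51, 0.51 and 0.99) and Pdk2 fell (−0.89). Of 11 further sugar carriers and isozymes, 1 rose, Tigar (0.69), and 2 fell, among them Slc16a7 (−0.91). None of the 9 HIF subunits and oxygen-sensing genes tested was called by limma (1 at an unadjusted p under 0.05), among them Epas1, which encodes HIF-2α (−0.47 ± 0.28), and the partner subunit Arnt (0.42 ± 0.14, adjusted p = 0.0539).

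Few genes of the same lists were called in eosinophils, where 4.61% of all genes tested were called, 2.42% higher and 2.19% lower. Of 29 wider HIF targets tested, Hmox1, the heme oxygenase, rose (1.36 ± 0.32, adjusted p = 0.0321, limma) and Vegfa fell, from 2567 and 6659 in naive libraries to 643, 950.0 and 1590 (lowest, median, highest) in tumor libraries. Of 10 further carriers and isozymes, Slc2a6, a lysosomal hexose carrier, rose (3.17 ± 0.73, adjusted p = 0.0286, limma) and Slc16a7, which encodes MCT2, fell (−2.48 ± 0.52, adjusted p = 0.0193, limma). None of the 12 pyruvate entry, 8 pentose phosphate, 11 glycogen and 9 oxygen-sensing genes tested was called by limma, with 0, 0, 2 and 1 at an unadjusted p under 0.05. In the joint model the tumor effect in eosinophils was lower than in macrophages for Vegfa (−5.00 ± 0.40, adjusted p = 7.29e-08, limma), and also for Mxi1 (−2.16), Ero1l (−1.62), Pygl (−2.71), Adpgk (−1.95), Slc16a7 (−1.70), Pgd (−1.24) and Mpc1 (−1.20), and higher for Slc2a6 (2.99).

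Ldhc, the lactate dehydrogenase best known from testis, had 160 reads over the naive and 363 over the tumor eosinophil libraries and 0 in all 11 macrophage libraries. With 3 reads over a group as the limit that a count of 0 allows, the macrophages allow at most 0.13 CPM in naive and 0.0848 CPM in tumor colon, against 13.4 and 9.47 CPM over the eosinophil libraries, so that Ldhc was at least 112-fold higher in tumor eosinophils than in tumor macrophages. This covers counting error only. Its level in eosinophils was 12.3 and 15.3 CPM in naive and 6.70 to 14.4 CPM in tumor libraries.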

How the data were processed

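The values in both tables are a signal per gene, which the authors deposited as reads divided by a size factor per library; the tables are scaled separately. Per the submitters' processing notes, the build was GRCm38.p5 and the tools named are TopHat2 2.1.0 with Bowtie2 2.2.6, HTSeq 0.6.1, DESeq2 1.14.1, and FastQC 0.11.5 with Trim Galore. Whether counting used strand, and how technical replicates were merged, is stated by none of the sources used here. Whole reads were recovered from the steps of the values: 100.0% of the non-zero values came out whole within 0.1 read in all 20 libraries. The 27 entries without a gene name, at most 0.1323% of a library's reads, were left out.

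Because the values are normalised, limma 3.58.1 (R 4.3.3) was fitted to log2(value + 1) per table, over genes at 10 or more in at least 2 eosinophil or 5 macrophage libraries. For the difference between cell types and for levels, 1 model of the 4 groups was fitted to recovered reads scaled by TMM (edgeR 4.0.16), over genes at 10 or more in at least 2 libraries. P-values were adjusted by Benjamini-Hochberg over all genes tested. Run on recovered reads, edgeR's quasi-likelihood test called 1944 genes for macrophages, 531 for eosinophils and 588 for their difference. Shares of paralogs were compared by exact two-sided permutation tests. The fits were tested on simulated data. Alternatives were another pseudocount, no filter, edgeR, limma-voom with quality weights, other scaling, a replicate block and leaving out each library; those without tumor eosinophil libraries 2 and 3, without tumor macrophage libraries 1 and 2, and with Gapdh and Gm3839 summed were chosen after seeing the data. Members and lists were chosen with earlier results of these data known. By rule, called members are given by library, the other members by range, mean or change, and at most 6 called genes are named per further list; Zfp395, Ldhc, Epas1 and Arnt were named after their values were seen. For 1 called gene of the further lists the values are not reported here.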

Additional observations from a re-analysis of the deposited data

Results flagged for a closer look

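In 3 of 96 combinations of a member and a group of 4 to 10 libraries (3.12%), 1 library lay apart from the others by Dixon's criterion; chance gives about 1 in 20. Slc2a3 was at 432.7 normalised reads in tumor eosinophil library 2, below the other 6 (530.8 to 595). Hk1 was at 343.4 in tumor macrophage library 2, above the other 5 (190.5 to 244.7). Ldha was at 1008 in naive macrophage library 5, below the other 4 (1063 to 1076).

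The tumor effect differed between eosinophils and macrophages, by the test of the difference in the joint limma model, for Slc2a1 (−3.03), Hif1a (−2.23), Ddit4 (−2.63), Pgam1 (−1.50), Aldoa (−1.47) and Ldha (−0.85 on the log2 scale), lower in eosinophils each time.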

How the results depend on the processing

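Calls on members were compared over the alternatives by adjusted p in limma or edgeR. In macrophages 16 of the 19 calls held in all 19 alternatives, the exceptions being Hk2, Slc2a3 and Eno1. In eosinophils the call of Slc2a3 held in all 17 and that of Egln3 did not; the 2 calls became 1 with limma-voom and 1 without tumor libraries 2 and 3, and 1 to 6 when 1 library was left out (6 without naive library 1, 1 without naive library 2). Aldoc, not called in eosinophils at 1.115 ± 0.925, was called higher there in 1 of 17 alternatives, the replicate block (adjusted p = 0.0208, limma). Of the 6 differences, those of Slc2a1 and Hif1a held in all 26.

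Over all genes, the 598 calls in eosinophils became 197 with limma-voom and 93 (without naive library 2) to 951 (without naive library 1) when 1 library was left out. The 609 differences became 399 with no filter, 137 with limma-voom and 164 to 1764 with 1 library left out, again without naive eosinophil library 2 and 1. The 4507 genes that differed between the naive cell types became 2596 with limma-voom. Pfkl, at −0.91 there, reversed to 1.346 without naive eosinophil library 2 and was at −3.098 without library 1.

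The labels do not say whether same-numbered libraries belong together. Their deviations from the group means correlated at 0.127 and 0.124 in eosinophils, where the highest with another number were 0.061 and 0.052. In macrophages they correlated at −0.311 to 0.056, where the highest with another number were 0.135 to 0.251. The deviations of 2 naive eosinophil libraries mirror each other, so the 2 eosinophil pairs cannot decide this. With the replicate number as a block, 1143 genes were called in eosinophils, 1230 in macrophages (1968 without it) and 401 for the difference, and 3 members for the difference, in place of 6. The block could not be fitted to the comparisons between cell types and was not run there.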
